A study of Mus musculus with 2 samples.

Results

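The alpha-arrestins and the Arl4 small GTPases were examined in liver RNA-seq libraries from Pgrmc1 knockout (KO) and wild-type (WT) mice. The set holds 8 of the 24054 genes of the deposited expression table, taken by gene symbol: the alpha-arrestins Arrdc1, Arrdc2, Arrdc3, Arrdc4 and Txnip, and the GTPases Arl4a, Arl4c and Arl4d. These families were selected on values of these same libraries, because Arrdc3 and Arl4d had large differences between KO and WT. Those differences are therefore given as a description. Pgrmc1 encodes a haem-binding membrane protein of the endoplasmic reticulum. The study asked with these libraries whether loss of Pgrmc1 alters the transcripts of cytochrome P450 enzymes in liver. The KO group consisted of male Pgrmc1 -/Y mice, made by crossing a floxed allele, built in C57BL/6N, that loses exons 1 and 2 with Sox2-Cre, which acts in the early embryo and so deletes the gene in all tissues of the animal. The WT group consisted of male wild-type mice, and whether they carried Sox2-Cre or were littermates was not given in the sources used here. Both groups were C57BL/6 animals of 8 to 12 weeks. Liver RNA of 5 mice per genotype was pooled at 2.5 µg per mouse and sequenced as 1 library, so the series holds 2 libraries in all and no spread between animals can be computed. No test between genotypes was possible, and no p-values are given. Mice were housed with free access to feed, and neither a fast before harvest nor the hour of harvest was stated for these livers.

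Alpha-arrestins are adaptor proteins. Their arrestin fold binds membrane proteins such as receptors and transporters, and short PPxY motifs (proline, proline, any residue, tyrosine) near their carboxy terminus bind the WW domains of NEDD4 family ubiquitin ligases, which mark the bound protein for endocytosis and breakdown. Txnip additionally binds thioredoxin, and both Txnip and Arrdc4 restrain glucose uptake and are textbook targets of the glucose-sensing transcription factors ChREBP (Mlxipl) and MondoA (Mlxip). Arl4 proteins are ARF-like GTPases that sit at the plasma membrane and recruit cytohesins, exchange factors that switch on Arf6 and thereby actin remodelling.

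Sequence features of the families were read from the coding sequence of the GENCODE M21 transcripts (GRCm38, the assembly also called mm10). All 5 alpha-arrestins held 2 in-frame stretches of codons for PPxY. Both stretches match the ligase-binding signature, and the second of each gene is printed here. The PPxY codons are in capitals, with 9 bases on each side. Each printed window crosses the junction of exons 7 and 8, so that its coordinates include the intron between them.
Arrdc3, chr13:80891616-80893372, plus strand, codons 391 to 394 of 414: ttcctgcccCCACCTCTCTATtcagagatt
Arrdc4, chr7:68739531-68739911, minus strand, codons 392 to 395 of 415: ttccagcctCCCCCCCTTTATtcagaggtt
Txnip, chr3:96560333-96560481, plus strand, codons 376 to 379 of 397: ttcatgcccCCACCCACTTACactgaggtg
Arrdc2, chr8:70835992-70836246, minus strand, codons 385 to 388 of 407: tactgcccgCCTCCTCTGTACtccgaggag
Arrdc1, chr2:24925651-24925759, minus strand, codons 414 to 417 of 434: tatgaggccCCGCCGTCCTATgagcagagc

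Over their aligned coding bases the alpha-arrestins were between 60.2% (Arrdc3 and Txnip) and 65.5% (Arrdc1 and Arrdc2) identical. The Arl4 genes were closer in size, with 200 codons in Arl4a, 192 in Arl4c and 201 in Arl4d, and between 66.1% and 67.7% identical. The capitals below code for the loop that grips the phosphates of the bound nucleotide.
Arl4a, chr12:40036636-40036677, minus strand, exon 2 of 2: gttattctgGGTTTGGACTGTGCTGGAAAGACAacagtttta
Arl4c, chr1:88701575-88701616, minus strand, exon 1 of 3: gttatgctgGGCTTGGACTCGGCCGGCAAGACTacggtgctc
Arl4d, chr11:101666722-101666763, plus strand, exon 2 of 2: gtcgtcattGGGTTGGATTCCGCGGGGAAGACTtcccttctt
Reads of 1 gene can be assigned to another where their transcripts are identical. No window of 100 bases of Arrdc1, Arrdc2, Arrdc3, Arrdc4, Arl4c or Arl4d transcripts in GENCODE M21 occurred in another gene, members included. Whether the authors quantified on that annotation was not given in the sources used here. The estimated reads of Arrdc3 were not whole numbers (4264.13 in KO and 10493.52 in WT), and whether reads were shared was not tested. Of the Arl4a windows, 0.281% did. In Txnip 411 of 3408 windows (12.1%) were shared with Gm15441, an annotated antisense gene on the opposite strand. Gm15441 was listed at 0.23 TPM in the KO pool and 0.18 TPM in the WT pool and was looked up after the values were seen. Windows were compared on both strands, whereas the libraries were stranded, so sharing with an opposite-strand gene need not mean shared reads.

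Levels are given as TPM, a share of all transcripts in a library corrected for transcript length, so that they can be compared between genes. The estimated library totals were 22086692 reads in KO and 29710419 reads in WT. The deleted gene was checked first. Pgrmc1 was at 0.68 TPM in the KO library and 949.49 TPM in the WT library, from an estimated 15 and 29832 reads, as the labels require. Each change is log2((KO TPM + 1)/(WT TPM + 1)), so that a negative value is a lower level in KO. A gene was called higher at a fold of at least 1.4 and lower at a fold of at most 0.6. These limits were taken from the fold criterion of the study, read as a gain or loss of that size, without its second criterion, a posterior probability. The lower limit is the stricter of the possible readings: 35 genes were lower at 0.6 and 118 at 0.714, the mirror of 1.4. By this rule 1 of the 8 members was higher (Arl4d), against 1.09% of the 11623 genes averaging at least 1 TPM. Likewise 1 member was lower (Arrdc3), against 0.301% of those genes. The remaining 6 passed neither limit. Since the families were chosen for those members, nothing is read from the counts. The median change was -0.07 over the 8 members and -0.01 over all the genes, of which the middle 90% lay between -0.27 and 0.27. Of the 8 members, 7 averaged 1 TPM or more, and Arl4c, at a mean of 0.96 TPM, did not.

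**Figure D1:**
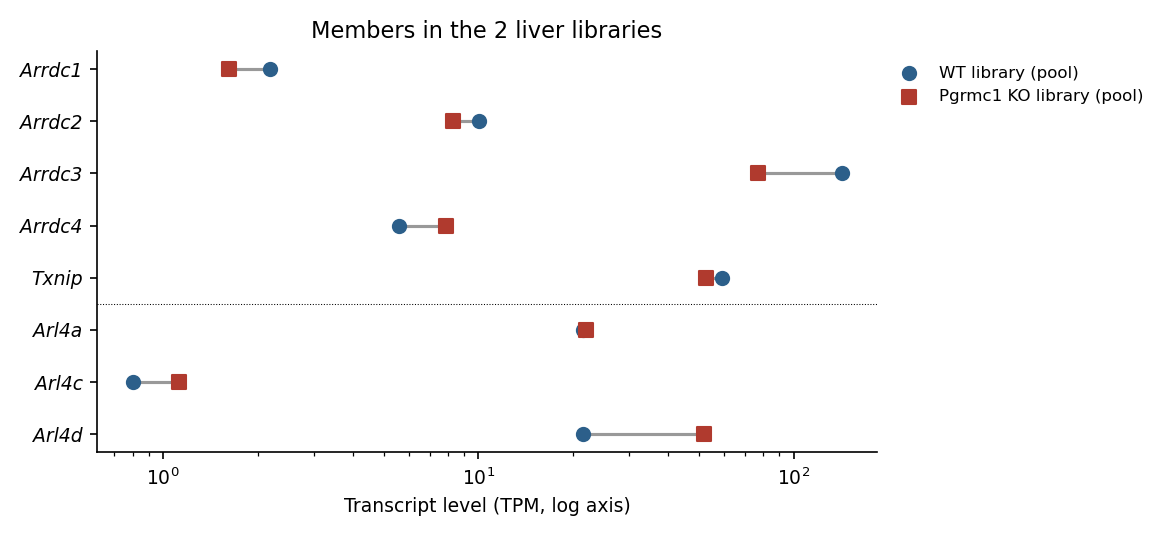
Level of each of the 8 members in TPM (horizontal log axis) in the WT library (circles) and the Pgrmc1 KO library (squares), each a pool of 5 livers, with the alpha-arrestins above the dotted line and the Arl4 genes below it. Arrdc3 lies to the left in KO (77.15 against 141.69 TPM) and Arl4d to the right (51.77 against 21.38 TPM), while the points of Arl4a coincide.

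Arrdc3, which couples membrane proteins to ubiquitin ligases and is known to limit energy expenditure, was the most abundant member in both libraries. It was at 77.15 TPM in the KO pool and 141.69 TPM in the WT pool, a log2 change of -0.87 and a fold of 0.548. Arrdc3 (chr13:80883384-80896042, GRCm38) was also the most deeply read member, with an estimated 4264 reads in KO and 10494 in WT. The second deposited table gives each library's estimated reads divided by a size factor, called here the authors' mean. On that scale Arrdc3 was at 4956 in KO and 9029 in WT, a log2 ratio of -0.87 with a 95% Clopper-Pearson interval of -0.92 to -0.81. These intervals cover counting error only and leave out differences between mice. Of the 11623 genes, 21 were lower in KO by at least as much as Arrdc3, itself included.

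Txnip, the thioredoxin-binding member, came next in level, at 52.56 TPM in the KO pool and 59.35 TPM in the WT pool (chr3:96557957-96561857). Its change was -0.17, inside the range of the middle 90% of genes. The authors' means gave -0.16, with an interval of -0.25 to -0.08 from 1947 and 2944 reads. Arrdc4, which like Txnip restrains glucose uptake, differed in the other direction, with 7.89 TPM in the KO pool and 5.61 TPM in the WT pool (chr7:68736994-68749238). The change of Arrdc4 was 0.43, a fold of 1.345, which is just outside the limit of 1.4. Without the added 1 TPM its ratio was 1.41, and the authors' means gave 1.56, with a log2 interval of 0.41 to 0.88 from 317 and 274 reads. Whether Arrdc4 passes the limit thus depends on the scale. Txnip and Arrdc4, though both glucose-responsive in textbook accounts, lay on opposite sides of 0.

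Arrdc2 (chr8:70835129-70839720), an adaptor of the same build, was at 8.28 TPM in the KO pool and 10.04 TPM in the WT pool. Its change was -0.25, and its interval on the authors' means ran from -0.50 to -0.04. Arrdc1 (chr2:24925352-24935335), which works with Tsg101 in the budding of vesicles from the plasma membrane, was the scarcest alpha-arrestin, at 1.62 TPM in the KO pool and 2.18 TPM in the WT pool. Only 32 and 60 reads stood behind it, and the interval of -1.14 to 0.17 around its log2 ratio of -0.47 included 0, so that no difference was detectable at this depth. Arrdc5, the other Arrdc symbol in the table, was at 0.08 TPM in the KO pool and 0.06 TPM in the WT pool, too low to describe.

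Arl4d (chr11:101665541-101667832), a GTPase that recruits cytohesins to the plasma membrane, was at 51.77 TPM in the KO pool and 21.38 TPM in the WT pool. Its log2 change was 1.24, a fold of 2.36. On the authors' means the log2 ratio of Arl4d was 1.30 (interval 1.13 to 1.46), from 883 reads in KO and 486 in WT. Of the 11623 genes, 32 were higher in KO by at least as much, itself included. Arl4a (chr12:40033291-40037987) stood at nearly the WT level of Arl4d, with 21.89 TPM in the KO pool and 21.52 TPM in the WT pool. The change of Arl4a was 0.02, and its interval of -0.08 to 0.15 included 0. Arl4c (chr1:88698225-88702191) was scarce, at 1.12 TPM in the KO pool and 0.80 TPM in the WT pool from 59 and 56 reads. Its ratio of the authors' means was 1.42, and the log2 interval of -0.04 to 1.06 included 0.

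**Figure D2:**
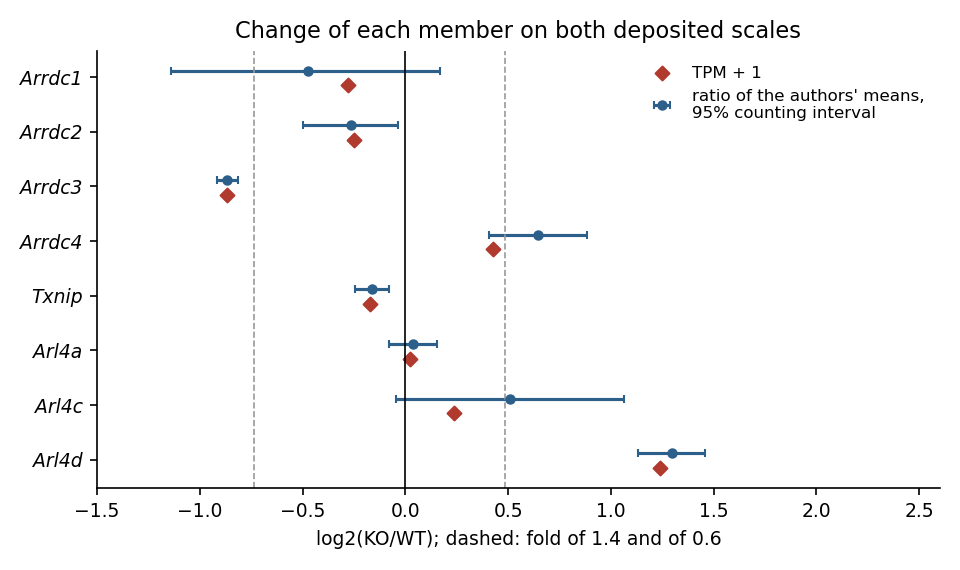
Change of each member as log2(KO/WT) on TPM with 1 added (diamonds) and on the authors' means (circles), with bars for the 95% counting interval and dashed lines at folds of 0.6 and 1.4. Arrdc3 lies below the lower line and Arl4d above the upper line on both scales, whereas Arrdc4 and Arl4c pass the upper line on the authors' means only.

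On the authors' means, 3 members passed the fold of 1.4 (Arrdc4, Arl4c and Arl4d), against 2.48% of the 11542 genes that are in both tables and average at least 1 TPM. Arl4c, at 0.96 TPM, is not among those genes. The counting interval of the ratio left out 0 for 5 of the 8 members (Arrdc2, Arrdc3, Arrdc4, Txnip and Arl4d), against 25.1% of those genes. The families were chosen for Arrdc3 and Arl4d, and an interval narrows as reads rise, so nothing is read from these counts either. An interval that leaves out 0 says that the reads of these libraries differed by more than counting error, taking each gene alone. It does not say that the pools of RNA or the genotypes differed.

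**Figure D3:**
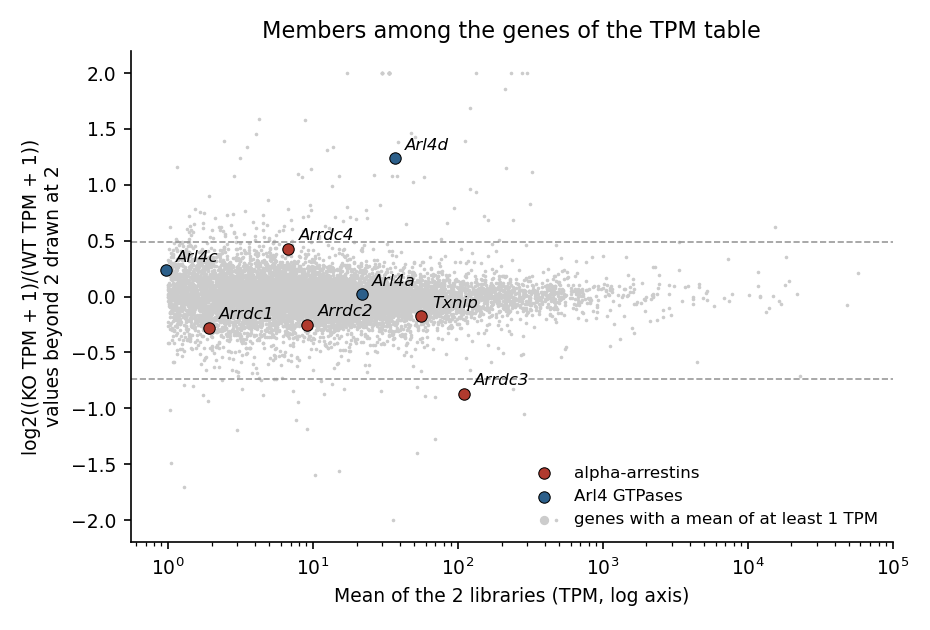
Change of each gene, log2((KO TPM + 1)/(WT TPM + 1)), against its mean level in TPM (log axis) for the 11623 genes averaging at least 1 TPM (grey), with the alpha-arrestins in red, the Arl4 genes in blue and dashed lines at folds of 0.6 and 1.4. Arl4d (1.24) and Arrdc3 (-0.87) lie outside the cloud, Arrdc4 (0.43) lies at its upper edge, and Arrdc1, Arrdc2, Txnip and Arl4a lie within it. Arl4c, at a mean of 0.96 TPM, is not among the grey genes.

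The share of each family total taken by its members also differed. The summed level of the 5 alpha-arrestins was 147.5 TPM in the KO pool and 218.87 TPM in the WT pool, a ratio of 0.674. Of the difference of 71.37 TPM, Arrdc3 accounted for 64.54 TPM. Arrdc3 supplied 52.3% of the alpha-arrestin transcripts in KO and 64.7% in WT, while Txnip supplied 35.6% and 27.1%. The level of Arrdc3 was 1.47 times that of Txnip in KO and 2.39 times in WT. The summed level of the Arl4 genes was 74.78 TPM in the KO pool and 43.7 TPM in the WT pool, a ratio of 1.71. Of the gain of 31.08 TPM, Arl4d made up 30.39 TPM. In WT, Arl4d and Arl4a were nearly equal, with 48.9% and 49.2% of the family total. In KO they held 69.2% and 29.3%. Each family total therefore moved with a single member: without Arrdc3 the log2 ratio of the alpha-arrestin sum was -0.13, and without Arl4d that of the Arl4 sum was 0.04.

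The genes whose change was nearest to that of the 2 called members were taken from the 6235 genes averaging at least 10 TPM. Such nearness rests on 2 libraries and is a description. Just beyond Arrdc3 were Hbb-bs, a haemoglobin chain (-0.89, 41.29 TPM in the KO pool and 77.14 TPM in the WT pool), and Phf11c (-0.88). Just short of it were the small nucleolar RNA Snora52 (-0.85) and Lpin1, a phosphatidate phosphatase of triglyceride synthesis (-0.82, 173.38 TPM in the KO pool and 307.53 TPM in the WT pool). Around Arl4d were Irs2, an insulin receptor substrate (1.32), and Cyp26a1, which degrades retinoic acid (1.33), on the far side. On the near side were Igfbp1, an insulin-suppressed binding protein of insulin-like growth factors (1.15), and G6pc, the glucose-6-phosphatase that releases glucose from liver (1.12).

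The partners of the alpha-arrestins were then described, list by list, over genes averaging at least 1 TPM. None of the 8 NEDD4 family ligases passed a limit, and their median change was -0.05. They ran from Hecw2 (-0.40) to Smurf2 (0.09). None of the 12 genes of the ESCRT machinery, which sorts ubiquitinated cargo, passed either, with a median of -0.02 and a range from Tsg101 (-0.13) to Vps37b (0.36). The beta-arrestins, the better known cousins of the family, gave -0.06 for Arrb1 and 0.05 for Arrb2. Of the membrane proteins known as clients, 5 were measured at this level and none passed. The glucose transporter Slc2a2, at 199.36 TPM in the KO pool and 215.35 TPM in the WT pool, was the lowest of them (-0.11). The 8 genes of the thioredoxin system had a median of -0.03, from Nxn (-0.19) to Txnrd3 (0.14), and none passed.

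The Mondo and MLX regulators of Txnip and Arrdc4, and lists of genes induced by ChREBP, glucocorticoids, fasting or FOXO1, gave mixed values. None of the 8 genes of the Mondo and MLX network passed a limit. Their median was -0.08, from the repressor Mnt (-0.23) to Mlxipl, which encodes ChREBP (0.20, 72.2 TPM in the KO pool and 62.77 TPM in the WT pool). Of 13 genes known as ChREBP targets, 11 had changes below 0, and the median was -0.24. In this list 1 gene was called lower, the lipogenic Thrsp (-1.05, 186.89 TPM in the KO pool and 387.02 TPM in the WT pool), and 1 higher, G6pc (445.52 TPM in the KO pool and 204.76 TPM in the WT pool). Among 8 glucocorticoid-induced genes, the kinase Sgk1 (0.77) and the mTOR inhibitor Ddit4 (0.80) were called higher, the median was -0.22, and Fkbp5 was the lowest (-0.53). Of 6 genes induced in fasting or by FOXO1, 3 were called higher, namely Irs2 (18.15 TPM in the KO pool and 6.69 TPM in the WT pool), Igfbp1 (294.54 and 132.17 TPM) and G6pc. The other 3 had changes below 0, with Ppargc1a, a coactivator of the same programme, the lowest (-0.30). The median of that list, 0.50, thus lay between separate groups of genes and was near none of them, and it was 1.12 over the genes averaging at least 10 TPM.

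Relatives and partners of Arl4d were set beside it in the same way. Of 22 other ARF, ARL and SAR GTPases, 18 had changes below 0, and the median was -0.10. They ran from Arl6 (-0.50) to Arl2, which takes part in the folding of tubulin. Arl2 was the 1 gene called higher (0.51), at 4.88 TPM in the KO pool and 3.13 TPM in the WT pool from 47 and 40 reads. None of the 11 ARF exchange factors passed a limit. Their median was -0.03, from the cytohesin Cyth1 (-0.16) to Psd4 (0.30).

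**Figure D4:**
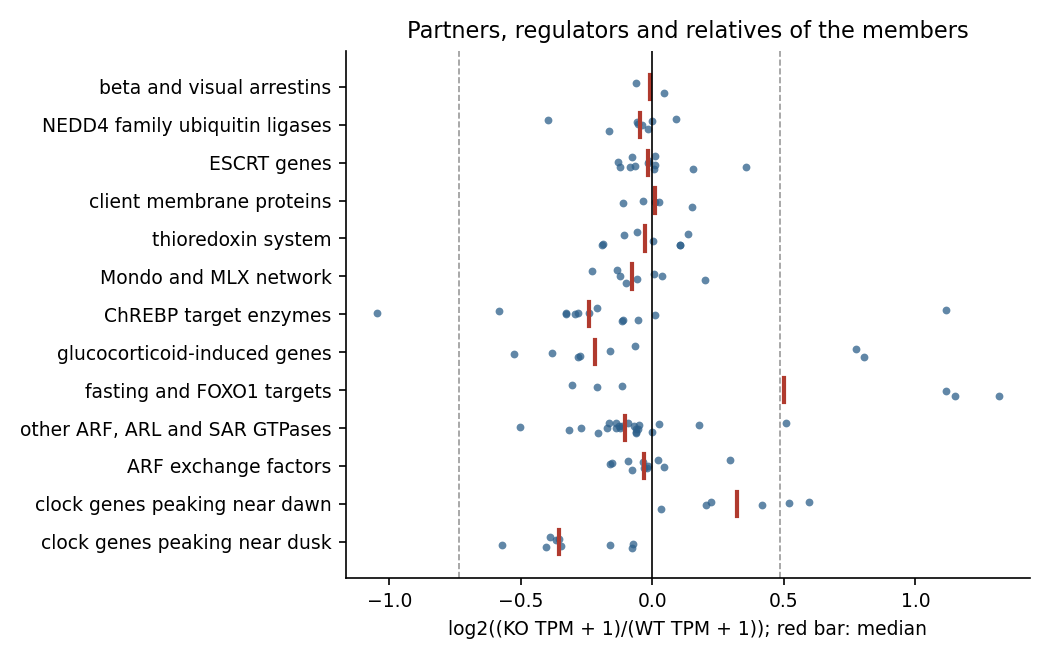
Change of each gene, log2((KO TPM + 1)/(WT TPM + 1)), for genes averaging at least 1 TPM (points). The lists hold partners, regulators and relatives of the members, target or induced genes, and clock genes. The median of each list is a red bar, and dashed lines mark folds of 0.6 and 1.4. The partner lists cluster about 0, the fasting and FOXO1 list is split with a median of 0.50, and the dawn and dusk clock genes lie on opposite sides of 0.

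Clock genes also differed between the pools. All 6 clock genes that peak near dawn had changes above 0, with a median of 0.32, from Clock (0.03) to Arntl (0.60), and Arntl and Npas2 (0.52) were called higher. All 9 that peak near dusk had changes below 0, with a median of -0.35, from Ciart (-0.57) to Per2 (-0.07), and none was called lower. Their part in the values of Arrdc3 and Arl4d was not tested. As the libraries are pools by genotype, genotype and hour of harvest cannot be told apart here.

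Markers of the cell types of liver were read beside the members. In bulk RNA, fewer cells of a type and less RNA per cell cannot be told apart. The 7 hepatocyte markers measured summed to 72344 TPM in the KO pool and 75299 TPM in the WT pool, the median change was -0.08, and the values ran from Ass1 (-0.47) to Fgb (0.09). All 7 Kupffer cell markers were above 0, from Vsig4 to C1qa, and summed to 279.29 TPM in the KO pool and 244.83 TPM in the WT pool. All 7 endothelial markers were below 0, from Lyve1 (-0.60) to Stab2, and summed to 159.87 and 176.44 TPM. The 6 stellate cell markers had a median of -0.18, from Rgs5 (-0.53) to Lrat (0.17), and summed to 206.18 and 233.85 TPM. The 5 cholangiocyte markers, with Epcam the lowest and Krt19 the highest, summed to 61.96 and 66.85 TPM. Markers of T and NK cells summed to 1.78 and 2.35 TPM, those of B cells to 2.4 and 1.83 TPM (Cd79b 0.42), and those of neutrophils, S100a8 and S100a9, to 6.08 and 5.0 TPM. Of the red cell markers, Hbb-bs was called lower (-0.89) and Hba-a1 was the highest (0.19), and the 4 summed to 921.7 TPM in the KO pool and 886.73 TPM in the WT pool. The part of cell composition in the values of the members was not tested.

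The sequence just upstream of the start of the members was read from RefSeq (GRCm38.p6), as 250 bases before each transcript start. All 8 members were found among 32851 such promoters, whose median GC content was 52.4%. Searched on both strands were CACGTG (the E-box), TGACGTCA (the cAMP response element), TGTTTAC (a forkhead site) and CCAAT. Also searched were 2 CACGNG hexamers 5 bases apart that read in the same direction. Such a pair is a narrow form of the site bound by ChREBP and MondoA with Mlx, and looser or inverted forms were not searched. The E-box can itself be 1 hexamer of a pair, and no matches overlapped in the windows printed here. The 4 promoters below belong to the called members and to the glucose-responsive Arrdc4 and Txnip, with matches in capitals. A match on the opposite strand appears as its reverse complement, so that CCAAT there reads ATTGG.
Arl4d, chr11:101665291-101665540, plus strand: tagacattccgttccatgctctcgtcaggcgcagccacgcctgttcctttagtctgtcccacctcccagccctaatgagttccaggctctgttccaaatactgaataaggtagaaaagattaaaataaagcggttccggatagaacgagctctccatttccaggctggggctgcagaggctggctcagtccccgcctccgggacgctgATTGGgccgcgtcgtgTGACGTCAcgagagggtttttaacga
Arrdc3, chr13:80883134-80883383, plus strand: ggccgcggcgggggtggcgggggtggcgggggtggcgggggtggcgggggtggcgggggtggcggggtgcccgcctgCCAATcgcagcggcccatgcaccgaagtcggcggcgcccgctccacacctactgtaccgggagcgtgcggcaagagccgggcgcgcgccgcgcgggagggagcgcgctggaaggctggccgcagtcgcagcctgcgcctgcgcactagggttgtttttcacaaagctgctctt
Arrdc4, chr7:68749239-68749488, minus strand: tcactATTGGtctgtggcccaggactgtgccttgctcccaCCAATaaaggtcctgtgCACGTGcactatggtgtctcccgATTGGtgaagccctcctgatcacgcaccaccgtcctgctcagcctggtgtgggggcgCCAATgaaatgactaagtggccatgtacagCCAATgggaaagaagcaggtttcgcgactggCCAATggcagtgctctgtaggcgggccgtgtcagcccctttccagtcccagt
Txnip, chr3:96557707-96557956, plus strand: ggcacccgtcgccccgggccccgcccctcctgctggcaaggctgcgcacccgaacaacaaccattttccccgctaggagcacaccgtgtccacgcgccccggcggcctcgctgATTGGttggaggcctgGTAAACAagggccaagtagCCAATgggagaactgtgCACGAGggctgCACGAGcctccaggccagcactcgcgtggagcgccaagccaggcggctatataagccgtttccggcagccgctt

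Only the Arl4d promoter among the members held TGACGTCA, at -26 to -19 from the start, a motif found in 1.55% of all the promoters. Its GC content was 54.4%, against 76.0% for Arrdc3 at the start of its gene model, where the window held 1 CCAAT and none of the other motifs. Windows at other RefSeq starts of Arrdc3 had 71.6% GC with no match and 70.8% GC with CCAAT at -211 to -207. Txnip held the pair of CACGNG hexamers at -85 to -69, and 15 of the 32851 promoters (0.0457%) held a pair in the narrow form searched. Txnip also held a forkhead match on the opposite strand at -121 to -115, a motif in 3.17% of promoters. Arrdc4 held CACGTG at -193 to -188, as did 6.02% of promoters, and 6 CCAAT matches, while 33.8% of promoters held at least 1. Arl4a had no match upstream of the start of its gene model and 2 CCAAT matches, at -133 to -129 and -84 to -80, upstream of another RefSeq start within the gene. Arrdc1 had none upstream of the RefSeq start listed for it. A match is a string of letters and not evidence that a factor was bound, and these libraries hold no binding data.

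**Figure D5:**
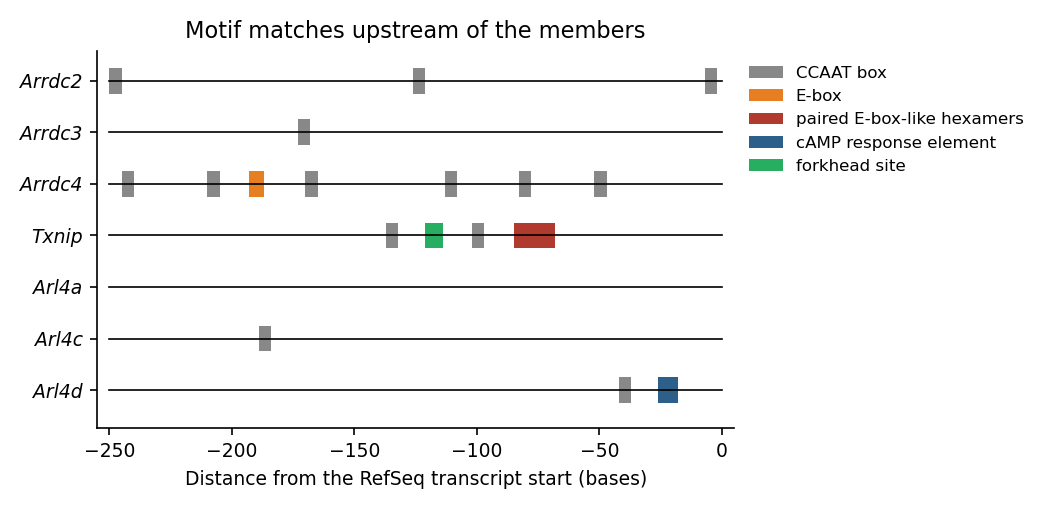
Position of motif matches (coloured blocks, drawn to scale) in the 250 bases upstream of the start of the gene model of 7 members, on an axis of distance from the start in bases. The cAMP response element lies next to the start of Arl4d, the paired hexamers lie between the middle of the window and the start of Txnip, and Arrdc4 carries 6 CCAAT boxes and 1 E-box. The line of Arl4a is empty because it had no match at this start, and Arrdc1, whose RefSeq promoter belongs to another start and had no match, is not drawn.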

How the data were processed

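Total RNA from the livers of 5 mice per genotype was pooled and made into 1 stranded library per genotype. Per the labels and the study's methods, the authors aligned paired-end reads to mm10 and estimated gene levels with RSEM 1.2.09 (Bowtie) after CASAVA 1.8.2. The deposited TPM columns are RSEM posterior means and had totals of 1005325 (KO library) and 994702 (WT library). Another deposited table gives a normalised signal per gene, which the authors made from RSEM estimated reads and an EBSeq size factor, for 16318 genes. That table also holds the authors' own comparison (posterior probabilities and fold changes), which was not used. The KO column was identified from the order of conditions in the table's name and in a supplementary table.

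Changes were computed as log2 of TPM with a pseudocount of 1. The most frequent value above 0 of each library in the second table was taken as 1 read. Refined on its low multiples, this step was 1.16 in KO and 0.861 in WT. Multiples of it lay within 0.02 of a whole number for 78.5% and 75.1% of genes and for 6 of 8 members. Those that did not were Arrdc3 (4264.13 in KO and 10493.52 in WT) and Arl4a (1078.62 and 1419.66). From these estimated reads came the 95% Clopper-Pearson intervals, which cover counting error only. The analysis was tested on simulated data. Python 3.11.15, pandas 2.3.3, scipy 1.17.1 and Biopython 1.88 were used.

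The members and the 23 gene lists were chosen with earlier results of these data known. Genes named were the members, Pgrmc1 and Arrdc5, in each list the genes past a limit and the highest and lowest, and the 2 genes on each side of each called member. The value of 1 gene that this rule names is not reported here. Alternatives were another pseudocount, the second table, 2 rescalings, other fold limits and other minimum levels. Symbols of 4 list genes (Tkfc, Tf, Adgre1 and Ly6g) did not match the table.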

Additional observations from a re-analysis of the deposited data

How the results depend on the processing

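Under every alternative tried for the 8 members (40 values in all) each kept its direction. The calls of Arl4d and Arrdc3 held except that no member was lower (0) at folds of 2 and 0.5, where Arrdc3 (0.548) falls short. On the authors' means 3 members were higher in place of 1. The change of Pgrmc1 was -10.25 with 0.1 TPM added and -10.44 on the authors' means, against -9.14. Without its most abundant member the log2 ratio of the summed alpha-arrestins was -0.13 in place of -0.57, and that of the Arl4 genes 0.044 in place of 0.78. Of the genes of all lists, 8 were called higher and 2 lower. Called lower were 4 on the authors' means and 9 when falls were set at the mirror of the rise (0.714), and at folds of 2 and 0.5 the calls were 3 higher and 1 lower.

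Over all genes, 127 were higher and 35 lower. The pseudocount of 0.1 TPM gave 266 and 70, the authors' means 286 and 72, and folds of 2 and 0.5 gave 31 and 13. The mirrored limit gave 127 and 118, which moved the share of calls that were higher from 78.4% to 51.8%. Without the minimum level the calls were 152 and 38 of 24054 genes, and over genes averaging 10 TPM or more 48 and 17 of 6235. Of 124 list medians recomputed, 4 moved by over 0.20: the fasting and FOXO1 median was 1.12 over genes averaging 10 TPM or more in place of 0.50, and that of the B cell markers, 0.42 from a single gene, was 0.75 with 0.1 TPM added, 0.82 on the authors' means and 0.09 without the minimum level. A further 5 changed sign close to 0: 3 for the beta and visual arrestins (up to 0.05), 1 for client proteins (-0.04) and 1 for red cell markers (0.06). No paired analysis was possible because a single pooled library stands for each genotype, and for the same reason none could be left out.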

Other observations

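The 2 deposited tables differed for Arrdc4, which was picked out after its values were seen. The reads per TPM in KO, divided by the same in WT, had a log2 of 0.15 for Arrdc4. Of the 9536 genes averaging at least 1 TPM and holding at least 100 reads in both libraries, 30 (0.315%), Arrdc4 included, differed by that much or more. The median size of the difference was 0.01. The other members with that depth, Arrdc2, Arrdc3, Txnip, Arl4a and Arl4d, lay between 0.01 and 0.02. A TPM summed over transcripts depends on how reads are split between them. In GENCODE M21 Arrdc4 has 2 transcripts, both coding. Arrdc2 has 7 transcripts (2 coding), Txnip 6 (2 coding), Arrdc3 6 (3 coding), Arl4a 5 (4 coding) and Arl4d 1 (coding). Transcript-level values were not analysed here, and the cause was not tested.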
